A study of Mus musculus with 9 samples.

Results

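The mouse genes described here are 40 ribosome biogenesis factors, chosen by symbol from a table of 24411 genes that gives the RNA level of each gene in 9 macrophage lines. All 40 symbols were found in the table and all 40 passed the filter on low values that left 11753 genes for testing. The lines were grown by the authors from C57BL/6 mice without genetic modification: 3 YS lines from the yolk sac of embryos, 3 FL lines from fetal liver, and 3 BM lines from the bone marrow of adults. All were kept in long-term culture with M-CSF, the growth factor on which they depend, and each was sequenced as 1 RNA library. Each line is a bulk culture from its own dish or well rather than a clone, and the cells that started it were pooled from more than one animal, so lines of a group may share starting cells. P-values therefore measure only the spread between lines.

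Ribosomes are built in the nucleolus. RNA polymerase I transcribes a long precursor of the ribosomal RNAs, box C/D and box H/ACA ribonucleoproteins methylate and pseudouridylate it, and a large assembly called the small-subunit (SSU) processome folds and cuts it. Separate sets of factors then mature the precursors of the small and the large subunit and bring them to the cytoplasm. Dividing cells need new ribosomes for each division, and many of these factors are known targets of the transcription factor Myc, which binds the E-box CACGTG.

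Promoter sequence is shown for 6 of the factors, most of them at the ends of the comparisons. Nop2 and Polr1a had the largest differences of the test between YS and BM lines, Mybbp1a had the smallest adjusted p there, Utp18 was higher in both embryonic groups, and Rcl1 and Noc3l were lower in FL lines than in BM lines. Utp18 was not at an end. Bysl, not shown, had larger log2 differences from BM lines (0.69 in YS and 0.71 in FL lines, against 0.56 and 0.60 for Utp18). Each sequence holds the 150 bases before the transcription start of the RefSeq annotation (build GRCm38.p6), written in the direction of transcription. Capitals mark an E-box (CACGTG, the same on both strands) or the core of an ETS site (CCGGAAG, or CTTCCGG for the other strand). The windows are chr6:125131733-125131882 on the plus strand for Nop2, chr11:93885767-93885916 on the minus strand for Utp18 and chr6:71908903-71909052 on the plus strand for Polr1a. For Mybbp1a the window is chr11:72441177-72441326 on the plus strand, for Rcl1 chr19:29101225-29101374 on the plus strand and for Noc3l chr19:38819238-38819387 on the minus strand.
Nop2: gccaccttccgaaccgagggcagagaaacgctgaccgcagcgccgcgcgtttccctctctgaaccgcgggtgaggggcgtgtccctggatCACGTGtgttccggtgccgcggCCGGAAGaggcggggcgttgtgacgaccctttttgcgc
Utp18: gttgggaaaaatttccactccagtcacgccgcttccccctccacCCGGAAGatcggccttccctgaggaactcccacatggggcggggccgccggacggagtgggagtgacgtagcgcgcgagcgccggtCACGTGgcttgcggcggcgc
Polr1a: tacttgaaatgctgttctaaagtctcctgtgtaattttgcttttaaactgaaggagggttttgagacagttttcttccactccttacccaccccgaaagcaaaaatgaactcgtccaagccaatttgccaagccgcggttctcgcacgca
Mybbp1a: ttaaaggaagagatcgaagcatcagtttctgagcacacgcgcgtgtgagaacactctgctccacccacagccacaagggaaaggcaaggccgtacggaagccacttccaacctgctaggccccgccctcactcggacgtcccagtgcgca
Rcl1: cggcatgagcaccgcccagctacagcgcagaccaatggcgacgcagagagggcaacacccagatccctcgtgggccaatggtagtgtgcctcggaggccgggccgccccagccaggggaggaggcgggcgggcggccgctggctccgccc
Noc3l: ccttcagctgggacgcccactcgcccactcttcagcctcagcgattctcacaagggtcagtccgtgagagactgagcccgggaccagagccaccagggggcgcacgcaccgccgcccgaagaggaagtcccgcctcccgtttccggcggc
Nop2 and Utp18 carried both motifs in this window, and the other 4 windows held neither. No other factor with a promoter entry had an E-box before the start, so these windows do not stand for the 40 factors.

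RefSeq promoters, which run from 250 bases before to 50 bases after the start, were found for 36 of the 40 factors (40 promoters). An E-box lay in 8 of the 40 promoters (20%), against 7.15% of all 32851 promoters and 10.2% of the 11347 promoters of tested genes. These were the promoters of Nop2, Utp18, Mybbp1a, Pes1, Tsr1, Ltv1, Utp20 and Wdr43, and the match lay before the start in Nop2 and Utp18 and after it in the other 6. The ETS core lay in 13 promoters (32.5%), against 8.86% of all promoters and 18.2% of those of tested genes. The NRF1 site core GCATGCGC lay in 1 promoter (2.5%, against 2.71% and 5.39%) and TATAAA in 2 (5%, against 13.6% and 6.99%), both strands being searched for each. No E-box overlapped an ETS core. Base composition was close to that of other tested genes, with a median GC content of 59.5% against 60.7%. Of the 8 genes with an E-box, Nop2, Utp18, Mybbp1a, Pes1 and Wdr43 were higher in YS lines than in BM lines by the test described below, and Tsr1, Ltv1 and Utp20 were not called there. Of all 40 factors 50% were called higher in that comparison, as were 23.5% of tested genes. Whether the calls go with the E-box was not tested. These matches describe letters in the windows and do not show that a factor binds there.

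RNA levels were deposited as TPM, read counts divided by transcript length and scaled to the same total in each library, so levels can be compared between genes. TPM keeps no read number, so library depth is not known. Between 13345 and 14322 genes were above 0 in a library. Macrophage markers were present in every line, with no marker of the 12 at 0. Their sum was 6901, 12410 and 10625 TPM in YS lines 1 to 3, below every FL line (14172 to 31594 TPM) and every BM line (15358 to 16887 TPM), and lowest in YS line 1. Without Lyz2, left out after the values were seen because it is the most abundant of them, the sum ran from 5738 to 8878 TPM in YS lines, from 8366 to 9880 TPM in FL lines and from 8630 to 9372 TPM in BM lines, and the groups overlapped. Fibroblast, epithelial and lymphocyte markers summed to at most 1.27, 0.27 and 0.62 TPM. The erythroid markers summed to 389 TPM in BM line 2 and to at most 14.9 TPM elsewhere, the endothelial markers to between 5.37 and 56.0 TPM in YS and FL lines (mainly Kdr, with Cldn5 and Emcn at 0) against at most 1.7 TPM in BM lines, and the granulocyte markers to at most 25.1 TPM (S100a8, with Elane, S100a9 and Ngp at 0). Hepatocyte markers summed to between 2.34 and 21.4 TPM, mostly Afp, with Serpina1a at 0. The part of these cells in the values below was not tested, and in bulk RNA a change in the share of a cell type and a change in RNA per cell cannot be told apart.

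The 40 factors together made up 0.492%, 0.338% and 0.344% of all TPM in YS lines 1 to 3, 0.294%, 0.240% and 0.264% in FL lines 1 to 3, and 0.252%, 0.255% and 0.254% in BM lines 1 to 3. Every YS line was thus above every FL and BM line, and YS line 1 stood above the other YS lines. FL and BM lines overlapped. The highest of the 40 on average was Npm1 at 643 TPM over the 9 lines, followed by Fbl at 204 TPM and Ncl at 168 TPM, and the lowest were Noc3l at 12.5 TPM and Rrp12 at 13.7 TPM. Over the 9 lines, Polr1c varied least (SD 0.13 on the log2(TPM + 1) scale) and Nob1 most (SD 0.57). The heat map of the 40 factors by line shows these levels relative to each gene's own mean.

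**Figure D1:**
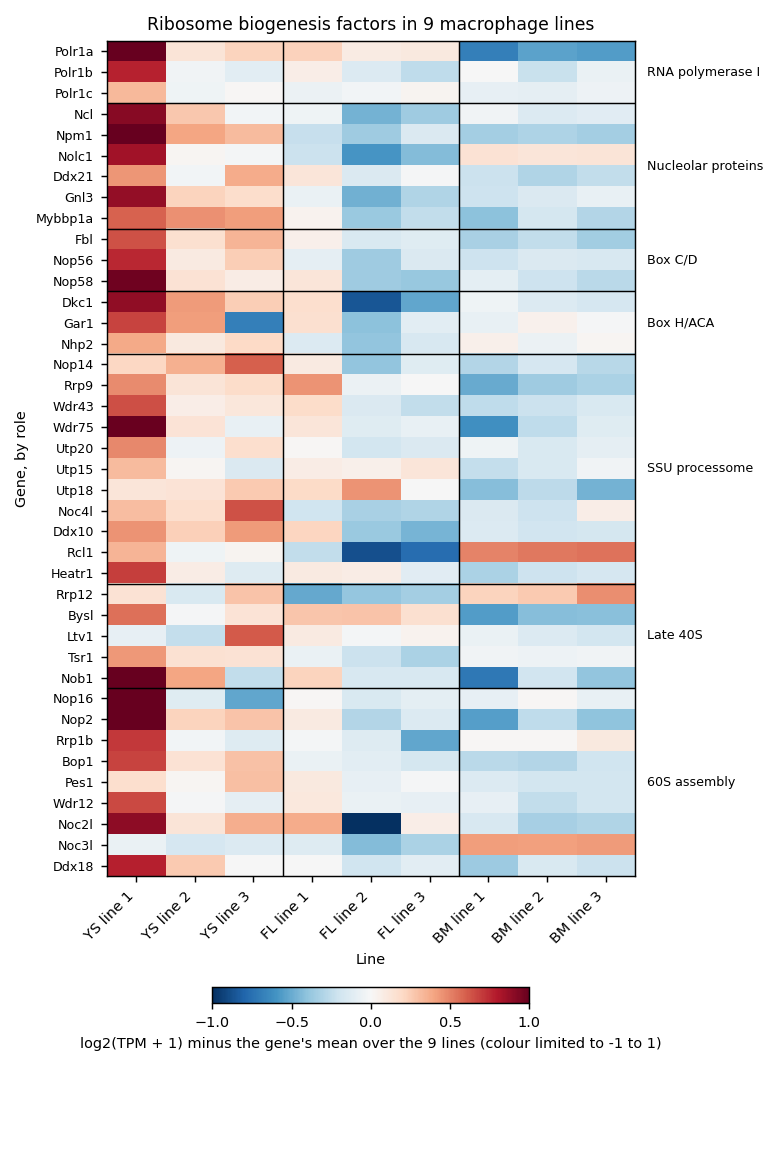
Level of each of the 40 factors (vertical axis, grouped by role) in each of the 9 lines (horizontal axis), as log2(TPM + 1) minus the gene's mean over the 9 lines, with the colour limited to -1 to 1. YS line 1 holds the highest value of 32 factors, and the 4 factors Nolc1, Rcl1, Rrp12 and Noc3l are lower in the FL lines than in the BM lines.

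Differences between groups were tested with limma on log2(TPM + 1), with all 9 lines in one model. P-values were adjusted over the 11753 genes by the Benjamini-Hochberg method, and a gene was called at an adjusted p under 0.1. Changes of low genes are understated on this scale. Between YS and BM lines, 20 of the 40 factors (50%) were higher and 1 was lower in YS lines, where 23.5% of all tested genes were called higher and 14.4% lower. The median log2 difference of the 40 was 0.50, beside 0.11 for all tested genes, and 37 of the 40 were positive. Every YS line was above every BM line for 27 factors (67.5%), against 30.3% of tested genes, and every BM line was above every YS line for 2 (Noc3l and Rcl1), against 18.7%. The changes were small in size: only Polr1a was also called at more than 2-fold, whereas 12.8% of tested genes were.

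Of the 21 calls between YS and BM lines, 12 held in each of the 19 alternative settings that were tried, among them Npm1, Fbl, Nop2, Bop1, Polr1a, Mybbp1a and the fall of Noc3l. The number of factors called was 12 without BM line 1 and 13 without BM line 3, when the share of all genes called also fell, from 37.9% to 22.4% and 21.9%. The scaling moved the median of all genes, from 0.11 to -0.01 with quantile normalization and to 0.00265 with median-of-ratios scaling, and the median of the 40 factors was 0.39 under both. Calls of all genes were then split differently, with 2763 of 4455 higher in YS lines as deposited, 2005 of 4248 after quantile normalization and 2139 of 4347 after median-of-ratios scaling. After quantile normalization 15 of the 40 factors were higher and 2 lower, beside 17.1% and 19.1% of tested genes. After median-of-ratios scaling 17 were higher and 2 lower, beside 18.2% and 18.8%. No called factor changed sign.

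Between FL and BM lines the 40 factors were called at no higher a share than other genes. FL lines were higher for 4 of them (10%: Polr1a, Bysl, Utp18 and Rrp9), against 17% of tested genes, and lower for 3 (7.5%: Rcl1, Rrp12 and Noc3l), against 10.6%. Their median log2 difference was 0.08, beside 0.09 for all tested genes, and it was -0.01 with quantile normalization. Only Rcl1 passed 2-fold, where 10.3% of tested genes did. Every FL line was above every BM line for 12 factors (30%), against 31% of tested genes, and every BM line was above every FL line for 7 (17.5%), against 18.5%. With only these 6 lines in the model, 7 of the 40 factors were higher and 4 lower, against 25.2% and 15.4% of tested genes.

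Between YS and FL lines, 15 of the 40 factors (37.5%) were called higher in YS lines, against 6.2% of all tested genes. None was called lower by limma, where 6.56% of tested genes were. At an unadjusted p under 0.05 in limma, 19 factors were higher and none lower, beside 1523 and 1493 of the 11753 tested genes. The median log2 difference was 0.44, beside 0.02 for all tested genes, and 37 of the 40 were positive. Every YS line was above every FL line for 18 factors (45%), against 12.6% of tested genes. None of the 40 passed 2-fold in limma, at the adjusted p or at an unadjusted p under 0.05, whereas 3.79% of tested genes were called at that size. The number of calls in this comparison changed with the lines in the model, which bears on each call against FL lines given below. In limma 0 factors were called with only the 6 YS and FL lines in the model (17 at an unadjusted p under 0.05), when 0.834% of all tested genes were called in place of 12.8%. Without FL line 3 it was 0 factors (17 likewise) and 2.34% of tested genes, without FL line 2 it was 1 (Mybbp1a) and 2.502%, and without any one of the BM lines it was 3 (Npm1, Noc4l and Mybbp1a) and 5.36% to 6.08%. Without YS line 1, 2 or 3 it was 10, 15 and 17 factors (11.2%, 14.7% and 15.3% of tested genes), and without FL line 1 it was 13 (13.5%). At an adjusted p under 0.05, 3 factors passed. The share of all tested genes was not counted at that threshold, nor at the unadjusted p in the models with 17 factors. The YS lines are common to both comparisons in which they were higher, and the BM lines to both in which they serve as the reference, so these comparisons are not independent of each other.

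**Figure D2:**
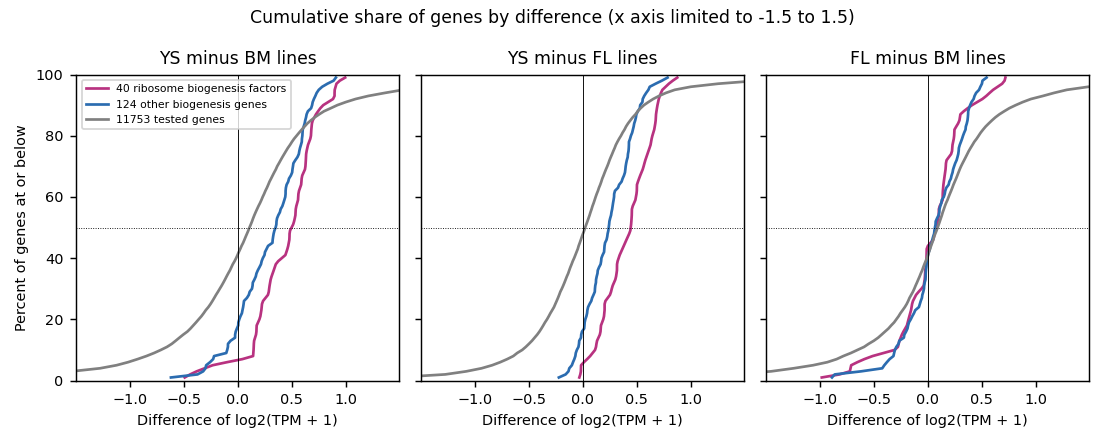
Cumulative share of genes (vertical axis, percent) at or below a given difference of log2(TPM + 1) (horizontal axis, limited to -1.5 to 1.5), for the 40 factors, 124 other ribosome biogenesis genes and the 11753 tested genes. The curve of the 40 factors crosses 50% at 0.50 for YS minus BM lines, at 0.44 for YS minus FL lines and at 0.08 for FL minus BM lines.

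RNA polymerase I makes the ribosomal RNA precursor, and Polr1a is its largest subunit. Polr1a levels were 78.9, 42.5 and 45.5 TPM in YS lines 1 to 3, 45.7, 41.1 and 41.5 TPM in FL lines 1 to 3 and 23.8, 26.4 and 26.1 TPM in BM lines 1 to 3. Every YS and FL line was above every BM line, with YS line 1 the highest. The log2 difference from BM lines was 1.05 (SE 0.21, limma adjusted p = 0.00974) for YS lines and 0.73 (SE 0.21, limma adjusted p = 0.0439) for FL lines. The call for FL lines was lost without FL line 1, BM line 1 or BM line 3, and the difference of YS lines was 0.77 without YS line 1 and under 2-fold there. Polr1b, the next subunit in size and the partner of Polr1a in the catalytic centre, stood at 30.1, 16.8 and 15.97 TPM in YS lines 1 to 3, 18.1, 15.6 and 14.3 TPM in FL lines 1 to 3 and 17.2, 14.6 and 16.4 TPM in BM lines 1 to 3. Polr1c, which RNA polymerase III also uses, stood at 45.2, 34.9 and 36.2 TPM in YS lines 1 to 3, 34.5, 35.2 and 36.6 TPM in FL lines 1 to 3 and 33.9, 33.8 and 34.6 TPM in BM lines 1 to 3. Neither was called in any comparison, and only YS line 1 stood clearly above the rest for both. The ratio of Polr1a to Polr1b in TPM was 2.63, 2.53 and 2.85 in YS lines 1 to 3, 2.52, 2.64 and 2.90 in FL lines 1 to 3, and 1.38, 1.80 and 1.59 in BM lines 1 to 3. The BM lines were thus apart from the other 6 in this ratio, while Polr1b over Polr1c (0.391 to 0.666) overlapped among the groups. Of 14 other listed genes of RNA polymerase I and its factors, 11 were matched by symbol and tested, and 4 of these (36.4%, against 23.5% of all tested genes) were higher and none lower in YS lines than in BM lines (at an unadjusted p under 0.05 in limma, none was lower either).

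Of the 6 general nucleolar proteins, 5 (83.3%) had every YS line above every BM line, against 30.3% of tested genes. Every YS line was above every FL line for 5 (83.3%) as well, against 12.6% of tested genes. Npm1 (nucleophosmin), an abundant nucleolar chaperone, had 1217, 801 and 761 TPM in YS lines 1 to 3, 520.3, 476 and 553 TPM in FL lines 1 to 3 and 482, 492 and 482 TPM in BM lines 1 to 3. All YS lines were above all others, and FL and BM lines overlapped. YS lines had 927 ± 253 TPM (SD, n = 3) against 485 ± 5.65 TPM in BM lines (SD, n = 3), with a log2 difference of 0.90 (SE 0.17, limma adjusted p = 0.00807), and 0.81 (SE 0.17, limma adjusted p = 0.0429) against FL lines. Npm1 has processed pseudogenes in the mouse, so its level depends on how shared reads were assigned. Mybbp1a, a Myb-binding nucleolar protein that acts in ribosomal RNA synthesis, had 162, 148 and 144 TPM in YS lines 1 to 3, 110.3, 82.7 and 90.6 TPM in FL lines 1 to 3 and 80.4, 94.8 and 87.6 TPM in BM lines 1 to 3. Its YS lines lay close together and above all others, and its adjusted p values of 0.00455 against BM lines and 0.0299 against FL lines (limma) were the smallest of the 40 factors in these comparisons. The log2 differences were 0.78 (SE 0.13) and 0.68 (SE 0.13). Ncl (nucleolin), which binds the precursor RNA, was at 306, 195 and 159 TPM in the YS lines, 157, 117 and 126 TPM in the FL lines and 158, 147 and 149 TPM in the BM lines. Every YS line exceeded every other line, but the log2 difference of 0.48 (SE 0.22, limma adjusted p = 0.137) from BM lines was not called, and YS line 1 was far above YS line 3.

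Gnl3 (nucleostemin), a nucleolar GTPase, was at 121, 76.4 and 73.8 TPM in the YS lines, 62.3, 46.6 and 52.8 TPM in the FL lines and 56.6, 59.2 and 62.05 TPM in the BM lines. Ddx21, a helicase of ribosomal RNA transcription and processing, was at 115, 82.8 and 109 TPM in the YS lines, 91.8, 76.2 and 83.3 TPM in the FL lines and 72.4, 68.3 and 70.7 TPM in the BM lines. In both, all YS lines were above all BM lines, and both were called there, with log2 differences of 0.56 (SE 0.19, limma adjusted p = 0.0599) and 0.52 (SE 0.14, limma adjusted p = 0.0253). Gnl3 was also called against FL lines, at 0.71 (SE 0.19, limma adjusted p = 0.0699), while Ddx21 overlapped with them and was not. The call of Gnl3 against BM lines was lost when any one BM line was left out. Nolc1, a chaperone of the small nucleolar ribonucleoproteins, was at 84.8, 47.7 and 46.4 TPM in the YS lines, 40.4, 30.9 and 34.6 TPM in the FL lines and 52.1, 51.2 and 51.6 TPM in the BM lines. Here FL lines were below all others, the log2 difference between YS and FL lines was 0.69 (SE 0.22, limma adjusted p = 0.0986), and YS and BM lines overlapped. In the role as a whole, 4 of 6 proteins (66.7%) were called higher in YS lines than in BM lines, against 23.5% of tested genes. Against FL lines 4 of 6 (66.7%) were called higher in YS lines, where 6.2% of tested genes were. None was called between FL and BM lines, where 17% of tested genes were higher and 10.6% lower in FL lines. At an unadjusted p under 0.05, limma had 1 of the 6 (Nolc1) lower in FL lines than in BM lines and none higher. Of the 11753 tested genes, 1509 were lower and 2443 higher at that cut.

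Box C/D ribonucleoproteins, which guide methylation of ribosomal RNA, have Fbl as the methyltransferase and Nop56 and Nop58 as core proteins. Fbl had 310.0, 223 and 251 TPM in YS lines 1 to 3, 206, 178 and 183 TPM in FL lines 1 to 3 and 159, 168 and 156 TPM in BM lines 1 to 3. Nop56 had 235, 148 and 164 TPM in YS lines 1 to 3, 130.3, 108 and 125 TPM in FL lines 1 to 3 and 119.9, 125 and 124 TPM in BM lines 1 to 3. Nop58 had 207, 116 and 110.1 TPM in YS lines 1 to 3, 114, 81.7 and 80.2 TPM in FL lines 1 to 3 and 97.9, 90.8 and 86.5 TPM in BM lines 1 to 3. In all 3, every YS line was above every BM line, and in Fbl and Nop56 above every FL line as well. Of tested genes, 30.3% and 12.6% were so placed against BM and FL lines. The log2 difference between YS and BM lines was 0.68 (SE 0.13, limma adjusted p = 0.00791) for Fbl and 0.53 (SE 0.17, limma adjusted p = 0.0439) for Nop56. For Nop58 it was 0.59 (SE 0.24, limma adjusted p = 0.101), just short of a call, and YS line 1 was far above YS lines 2 and 3. Against FL lines, the difference was 0.45 (SE 0.13, limma adjusted p = 0.0778) for Fbl and 0.56 (SE 0.17, limma adjusted p = 0.0856) for Nop56. The call of Nop56 against BM lines was lost without BM line 1 or BM line 3. The ratio of Fbl to Nop56 stayed between 1.27 and 1.65 in the 9 lines.

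Box H/ACA ribonucleoproteins, which guide pseudouridylation, have Dkc1 as the pseudouridine synthase and Nhp2 and Gar1 among their core proteins. Dkc1 had 59.9, 43.3 and 38.1 TPM in YS lines 1 to 3, 36.1, 17.2 and 22.1 TPM in FL lines 1 to 3 and 30.96, 29.01 and 28.3 TPM in BM lines 1 to 3. Nhp2 had 211, 174 and 186 TPM in YS lines 1 to 3, 147, 123 and 145 TPM in FL lines 1 to 3 and 168, 156 and 165 TPM in BM lines 1 to 3. For both, every YS line exceeded every FL and BM line, where 30.3% of tested genes did so against BM lines and 12.6% against FL lines. The difference was called only against FL lines, at 0.92 (SE 0.26, limma adjusted p = 0.0758) for Dkc1 and 0.46 (SE 0.11, limma adjusted p = 0.057) for Nhp2, and the Dkc1 difference from BM lines, 0.64 (SE 0.26, limma adjusted p = 0.1003), was just over the threshold. Gar1 was at 60.8, 50.7 and 23.1 TPM in the YS lines, 42.2, 28.1 and 35 TPM in the FL lines and 35.8, 38.8 and 37.5 TPM in the BM lines. It had its lowest value in YS line 3 and its highest in YS line 1, the groups overlapped in each comparison, and it was not called. None of the 3 was called between YS and BM lines, where 23.5% of tested genes were higher and 14.4% lower. Between FL and BM lines none was called either, where 17% were higher and 10.6% lower in FL lines. Against FL lines, 2 of the 3 (66.7%) were called higher in YS lines, where 6.2% of tested genes were. At an unadjusted p under 0.05 in limma, 1 was higher in YS lines than in BM lines, beside 3013 of the 11753 tested genes. At that cut none differed between FL and BM lines, beside 2443 higher and 1509 lower tested genes.

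**Figure D3:**
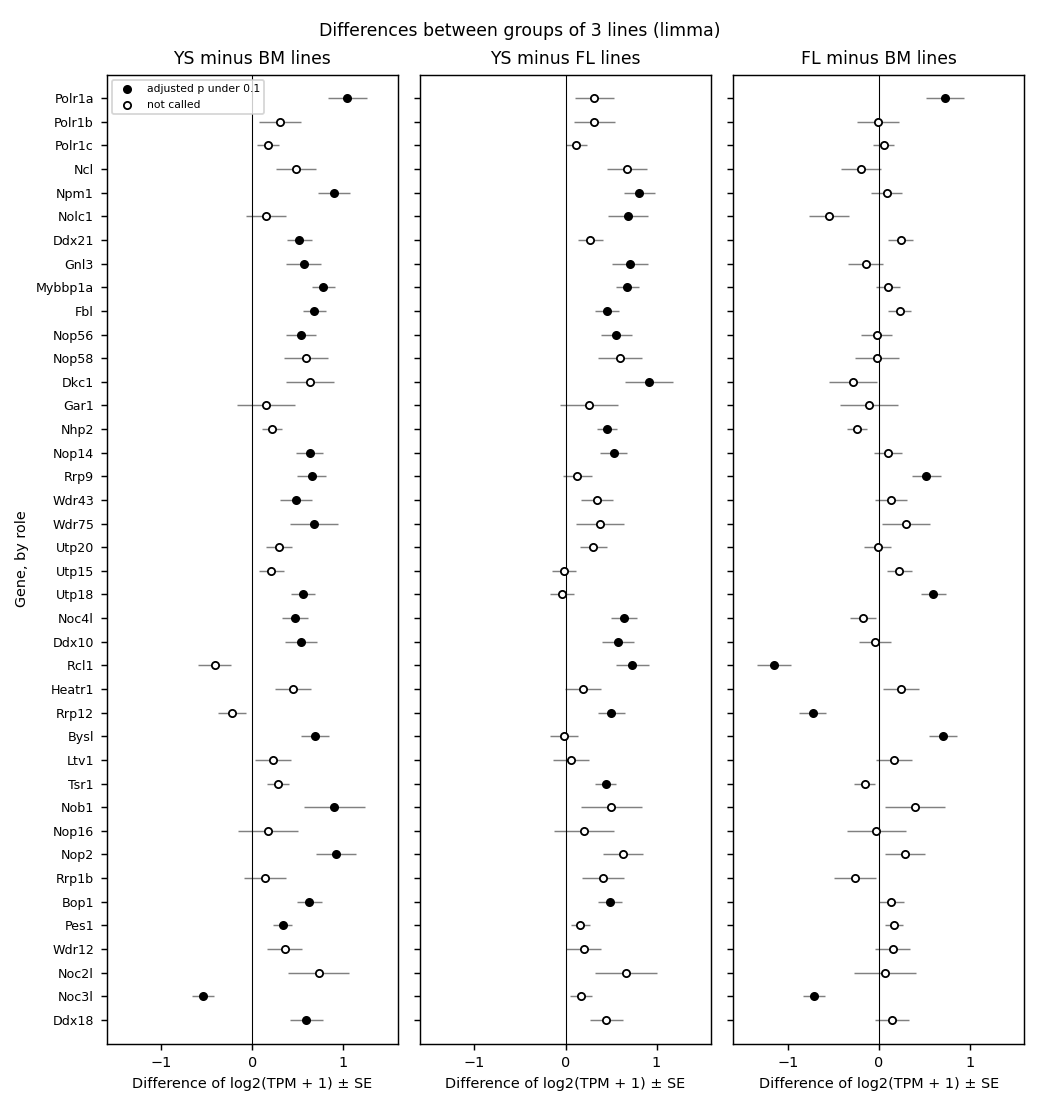
Difference of log2(TPM + 1) between groups (horizontal axis) for each factor (vertical axis, grouped by role), with 1 standard error of the limma model on each side, and filled points for an adjusted p under 0.1. The filled points lie to the right of 0 for 20 factors in YS minus BM lines and for 15 in YS minus FL lines, and on both sides of 0 in FL minus BM lines (4 higher and 3 lower).

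The SSU processome was represented by 11 factors, of which 7 (63.6%) were called higher in YS lines than in BM lines, against 23.5% of tested genes. None was called lower, where 14.4% of tested genes were (none at an unadjusted p under 0.05 in limma either). Nop14, which binds Noc4l, was at 54.3, 60.01 and 71.2 TPM in the YS lines, 49.8, 35.4 and 42.9 TPM in the FL lines and 37.99, 41.6 and 38.5 TPM in the BM lines. Noc4l was at 44.7, 40.5 and 56.5 TPM in the YS lines, 31.3, 28.6 and 29.1 TPM in the FL lines and 32.4, 31 and 37.7 TPM in the BM lines. Both were highest in YS line 3, not in YS line 1, and all their YS lines were above all others. Against BM lines, the log2 difference was 0.63 (SE 0.15, limma adjusted p = 0.017) for Nop14 and 0.47 (SE 0.14, limma adjusted p = 0.0414) for Noc4l. Against FL lines it was 0.53 (SE 0.15, limma adjusted p = 0.0755) and 0.64 (SE 0.14, limma adjusted p = 0.0474). The call of Noc4l against BM lines was lost without BM line 1 or BM line 2 and under quantile normalization. Ddx10, a helicase, was at 40.8, 35.2 and 40.2 TPM in the YS lines, 34.6, 22.7 and 21.2 TPM in the FL lines and 26.9, 25.9 and 26.1 TPM in the BM lines. YS lines exceeded all others, with a log2 difference of 0.54 (SE 0.18, limma adjusted p = 0.0518) from BM lines and 0.58 (SE 0.18, limma adjusted p = 0.0912) from FL lines, and the first call was lost without YS line 1 or any one BM line.

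Utp18 and Rrp9 set both embryonic groups apart from BM lines. Utp18, of the UtpB complex, had 41.8, 42.2 and 46.2 TPM in YS lines 1 to 3, 43.9, 52.8 and 38.2 TPM in FL lines 1 to 3 and 28.3, 31.7 and 27.4 TPM in BM lines 1 to 3. Its highest value was in FL line 2, and every YS and FL line was above every BM line. The log2 difference from BM lines was 0.56 (SE 0.13, limma adjusted p = 0.018) for YS lines and 0.60 (SE 0.13, limma adjusted p = 0.0158) for FL lines. Rrp9, a protein of the U3 ribonucleoprotein, was at 65.3, 51.3 and 53.3 TPM in the YS lines, 64.5, 45.1 and 46.6 TPM in the FL lines and 32.8, 36.5 and 37.4 TPM in the BM lines. YS and FL lines overlapped and both were above BM lines, with log2 differences of 0.65 (SE 0.16, limma adjusted p = 0.0195) and 0.52 (SE 0.16, limma adjusted p = 0.0523). The call of Rrp9 in FL lines was lost without FL line 1 or any one BM line. Wdr43 and Wdr75 act early in the processome, close to transcription. Wdr43 was at 81.1, 54.1 and 55.7 TPM in the YS lines, 58.7, 46.4 and 43.4 TPM in the FL lines and 43.1, 44.2 and 46.4 TPM in the BM lines. Wdr75 was at 75.8, 41.5 and 35.7 TPM in the YS lines, 41.1, 34.5 and 35.8 TPM in the FL lines and 24.3, 31.5 and 34.5 TPM in the BM lines. Both had their highest value in YS line 1, and all YS lines were above all BM lines. The log2 difference from BM lines was 0.48 (SE 0.18, limma adjusted p = 0.0727) for Wdr43 and 0.68 (SE 0.26, limma adjusted p = 0.0854) for Wdr75. Neither call survived without YS line 1, without any one BM line, or under quantile normalization or median-of-ratios scaling. The Wdr75 call was lost without any one FL line as well, and in 13 of the 19 alternative settings in all.

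Rcl1, a protein needed for early cuts in the precursor, went the other way. It had 21.5, 16.3 and 17.2 TPM in YS lines 1 to 3, 14.1, 8.72 and 9.50 TPM in FL lines 1 to 3 and 24.2, 24.7 and 24.97 TPM in BM lines 1 to 3. All BM lines were above all YS lines, which were above all FL lines. The log2 difference of FL from BM lines was -1.15 (SE 0.18, limma adjusted p = 0.00399), that of YS from FL lines was 0.73 (SE 0.18, limma adjusted p = 0.0588), and the difference of YS from BM lines was not called. Without YS line 1, Rcl1 was also called lower in YS lines than in BM lines. The other processome factors, Heatr1, Utp15 and Utp20, were called in no comparison. Heatr1 had means of 37.6 ± 12.003 TPM in the YS lines, 31.8 ± 2.52 TPM in the FL lines and 26.6 ± 1.52 TPM in the BM lines (SD, n = 3 each). In the order YS, FL and BM lines, Utp20 had 31.5 ± 6.07 TPM, 25.1 ± 1.87 TPM and 25.2 ± 0.969 TPM, and Utp15 had 26.4 ± 4.52 TPM, 26.5 ± 0.655 TPM and 22.6 ± 1.70 TPM.

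Among the 5 factors of late small-subunit maturation, Bysl resembled Utp18. Bysl, which stays with the precursor until export, had 27.5, 18.4 and 20.4 TPM in YS lines 1 to 3, 22.6, 22.8 and 20.9 TPM in FL lines 1 to 3 and 12.2, 13.6 and 13.6 TPM in BM lines 1 to 3. Every YS and FL line was above every BM line, with a log2 difference of 0.69 (SE 0.16, limma adjusted p = 0.0142) for YS lines and 0.71 (SE 0.16, limma adjusted p = 0.0147) for FL lines, and the means of YS and FL lines were the same to the first decimal. Nob1, the endonuclease of the last cut in the small-subunit RNA, had 85.4, 46.99 and 29.8 TPM in YS lines 1 to 3, 41.4, 31.6 and 31.5 TPM in FL lines 1 to 3 and 21.2, 30.9 and 26.7 TPM in BM lines 1 to 3. It varied more among YS lines than any other called factor, YS line 3 lay below BM line 2, and the log2 difference from BM lines was 0.90 (SE 0.33, limma adjusted p = 0.0763). That call was lost without YS line 1, YS line 2, FL line 3 or any one BM line, and under quantile normalization. In all it was lost in 10 of the 19 alternative settings. Tsr1, a GTPase-like protein of the cytoplasmic precursor, was at 49.2, 40.3 and 40.04 TPM in the YS lines, 34.5, 31.1 and 28.9 TPM in the FL lines and 35.3, 34.8 and 35.2 TPM in the BM lines. YS lines were above all others and the BM lines, which lay close together, were above all FL lines. The call was against FL lines only, at 0.44 (SE 0.12, limma adjusted p = 0.0679).

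Rrp12, which acts in export of both precursors, had 14.8, 11.9 and 16.5 TPM in YS lines 1 to 3, 9.09, 10.01 and 10.4 TPM in FL lines 1 to 3 and 15.7, 16.2 and 18.8 TPM in BM lines 1 to 3. FL lines were below all others and YS and BM lines overlapped. The log2 difference was -0.73 (SE 0.15, limma adjusted p = 0.0116) for FL against BM lines and 0.50 (SE 0.15, limma adjusted p = 0.0857) for YS against FL lines. Ltv1, a factor that leaves the small subunit in its last steps, had 72.4 ± 24.4 TPM in the YS lines, 66.98 ± 2.64 TPM in the FL lines and 59.6 ± 2.40 TPM in the BM lines (SD, n = 3 each). Its highest and lowest values were both in YS lines (line 3 and line 2), and it was called in no comparison.

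Of the 9 factors of large-subunit assembly, 4 (44.4%) were higher and 1 (11.1%) lower in YS lines than in BM lines. Of tested genes, 23.5% were higher and 14.4% lower there. Against FL lines, 1 of the 9 (11.1%) was higher in YS lines and none lower, where 6.2% and 6.56% of tested genes were. Nop2, a methyltransferase of the large-subunit RNA, had 136, 76.6 and 79.9 TPM in YS lines 1 to 3, 69.9, 53.4 and 59.4 TPM in FL lines 1 to 3 and 44.3, 54.8 and 49.2 TPM in BM lines 1 to 3. YS lines were above all others, with a log2 difference of 0.92 (SE 0.22, limma adjusted p = 0.0172) from BM lines, while the difference from FL lines was not called. Bop1, Pes1 and Wdr12 form the PeBoW complex. Bop1 had 122, 84.4 and 93.5 TPM in YS lines 1 to 3, 72.5, 70.5 and 67.4 TPM in FL lines 1 to 3 and 62.95, 61.8 and 66.2 TPM in BM lines 1 to 3. Pes1 had 112, 101 and 123 TPM in YS lines 1 to 3, 106, 94.04 and 98.6 TPM in FL lines 1 to 3 and 90.3, 87.5 and 87.4 TPM in BM lines 1 to 3. Wdr12 had 60.5, 37.5 and 35.5 TPM in YS lines 1 to 3, 40.8, 36.03 and 35.6 TPM in FL lines 1 to 3 and 35.7, 31.7 and 33.2 TPM in BM lines 1 to 3. The 3 subunits differed in pattern: Bop1 was higher in YS lines than in all others, Pes1 was above BM lines, overlapping with FL lines, with its highest value in YS line 3, and Wdr12 stood out only in YS line 1. The log2 difference from BM lines was 0.63 (SE 0.14, limma adjusted p = 0.0123) for Bop1 and 0.33 (SE 0.10, limma adjusted p = 0.0409) for Pes1, the latter lost without any one BM line and under either other scaling. Bop1 was also called against FL lines, at 0.49 (SE 0.14, limma adjusted p = 0.0725). The ratio of Bop1 to Pes1 was 1.09, 0.836 and 0.762 in YS lines 1 to 3 and between 0.682 and 0.757 in the other 6 lines.

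Ddx18, a helicase of large-subunit assembly, was at 132, 91.7 and 76.1 TPM in the YS lines, 76.03, 66.2 and 70.9 TPM in the FL lines and 58.9, 68.3 and 65.4 TPM in the BM lines. YS lines were above all others, though YS line 3 and FL line 1 had nearly the same value. The log2 difference from BM lines was 0.59 (SE 0.18, limma adjusted p = 0.043), and it was lost without BM line 1 or BM line 3. Noc3l, a partner of Noc2l in large-subunit precursors, had 11.6, 10.8 and 11.02 TPM in YS lines 1 to 3, 11.1, 8.78 and 9.63 TPM in FL lines 1 to 3 and 16.7, 16.6 and 16.7 TPM in BM lines 1 to 3. It was the 1 factor called lower in YS lines, with every BM line above every YS and FL line and BM lines that hardly varied. The log2 difference from BM lines was -0.54 (SE 0.12, limma adjusted p = 0.0151) for YS lines and -0.71 (SE 0.12, limma adjusted p = 0.00567) for FL lines. Noc2l, Nop16 and Rrp1b were called in no comparison. Noc2l had 171 ± 48.5 TPM, 113 ± 49.9 TPM and 100.2 ± 6.64 TPM in YS, FL and BM lines (SD, n = 3 each) and its lowest value in FL line 2. Nop16 had 40.3 ± 24.1 TPM, 31.3 ± 1.88 TPM and 31.9 ± 1.22 TPM, and Rrp1b had 17.5 ± 6.22 TPM, 12.6 ± 2.36 TPM and 15.2 ± 0.580 TPM. For Nop16, YS line 1 at 67.7 TPM was above YS lines 2 and 3 at 30.3 and 22.8 TPM, the widest spread of the 40 within YS lines.

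The 4 factors with the lowest FL minus BM differences, Rcl1, Rrp12, Noc3l and Nolc1, are the 4 of the 40 that lie on chromosome 19 in the RefSeq annotation. Their median log2 difference was -0.72 for FL against BM lines and -0.32 for YS against BM lines, against 0.10 and 0.54 for the other 36. The 404 tested genes of chromosome 19 had a median of -0.79 for FL against BM lines and -0.52 for YS against BM lines, against 0.11 and 0.13 for tested genes on other chromosomes. Of those 404 genes, 287 were called lower in FL lines than in BM lines and 13 higher. Rcl1 lay below the median of the 404 in FL lines and the other 3 factors above it. Among the other biogenesis genes, 3 lie on chromosome 19, and all 3 were called lower in FL lines than in BM lines. With the 36 factors of other chromosomes alone, 20 (55.6%) were higher and none lower in YS lines than in BM lines. Of tested genes on other chromosomes, 24.5% were higher and 12.7% lower there. In FL lines 4 of the 36 (11.1%) were higher and none lower than in BM lines, against 17.6% and 8.43% of those genes. In YS lines 12 of the 36 (33.3%) were higher and none lower than in FL lines, against 5.9% and 6.69%. None of the 36 was lower in these comparisons at an unadjusted p under 0.05 in limma either. The cause of the lower median of chromosome 19 was not tested.

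**Figure D4:**
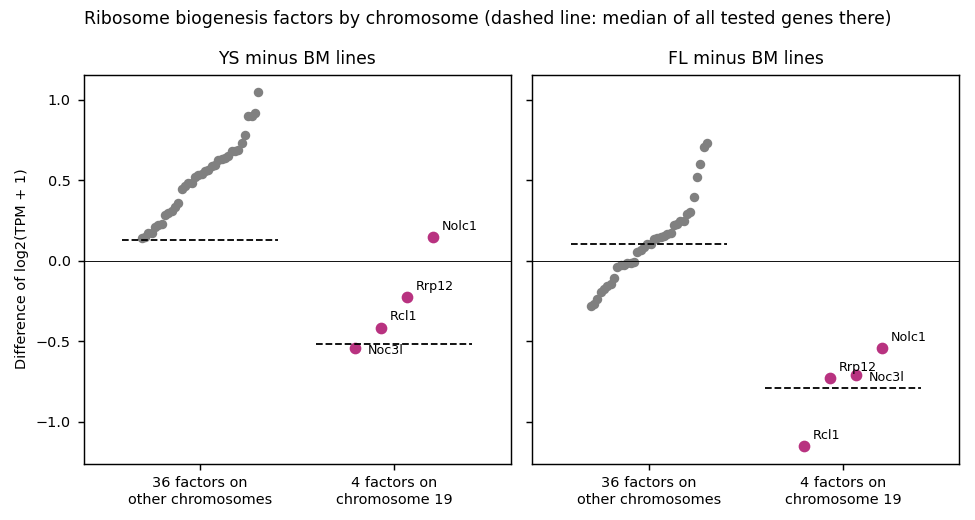
Difference of log2(TPM + 1) (vertical axis) of YS or FL lines from BM lines for the 36 factors on other chromosomes (grey) and the 4 on chromosome 19 (pink, named). Dashed lines give the median of all tested genes there, at 0.13 and -0.52 for YS minus BM lines and at 0.11 and -0.79 for FL minus BM lines.

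The rest of the pathway was described with a list of 133 other ribosome biogenesis genes, of which 124 were matched by symbol, and these 124 passed the filter. In YS lines 53 of them (42.7%) were higher and 2 (1.61%) lower than in BM lines, against 23.5% and 14.4% of all tested genes, with a median log2 difference of 0.35 beside 0.11. In FL lines 19 (15.3%) were higher and 6 (4.84%) lower than in BM lines, against 17% and 10.6%, with a median of 0.07 beside 0.09, so that no larger share was called than of all genes. In YS lines 17 (13.7%) were higher and 1 (0.806%) lower than in FL lines, against 6.2% and 6.56%, with a median of 0.24 beside 0.02. Ppan, a factor of large-subunit assembly, had the largest rise of the called genes of this list in YS lines. It was at 121, 74.1 and 119.9 TPM in the YS lines, 66.7, 44.5 and 49.9 TPM in the FL lines and 51.5, 54.6 and 54.99 TPM in the BM lines, with a log2 difference of 0.92 (SE 0.21, limma adjusted p = 0.0154) from BM lines and 0.94 (SE 0.21, limma adjusted p = 0.0482) from FL lines. Krr1, a processome protein, had the largest fall against BM lines. It was at 26.96, 27.4 and 32.8 TPM in the YS lines, 26.2, 25.8 and 23.2 TPM in the FL lines and 55.03, 44.8 and 47.2 TPM in the BM lines, with a log2 difference of -0.73 (SE 0.13, limma adjusted p = 0.0055) for YS lines and -0.94 (SE 0.13, limma adjusted p = 0.0021) for FL lines, and it does not lie on chromosome 19. Exosc10, a nuclease of the exosome, was at 105, 91.2 and 127 TPM in the YS lines, 99.7, 76.8 and 86.6 TPM in the FL lines and 57.05, 57.1 and 54.9 TPM in the BM lines, and its difference of 0.62 (SE 0.14, limma adjusted p = 0.0175) was the largest rise of the list in FL lines. Riok3, a kinase of small-subunit maturation, was the 1 gene of the list called lower in YS lines than in FL lines. It was at 87.4, 90.4 and 121 TPM in the YS lines, 148, 155 and 148 TPM in the FL lines and 184, 149 and 147 TPM in the BM lines, a log2 difference of -0.60 (SE 0.15, limma adjusted p = 0.0552).

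The spread among lines of a group differed by origin. The median SD of the 40 factors on the log2 scale was 0.33 in the YS lines, 0.14 in the FL lines and 0.06 in the BM lines, beside 0.28, 0.18 and 0.11 for all tested genes. The limma model shares a single spread per gene among the groups. The SE and p-values given for YS against FL lines thus also draw on the smaller spread of the BM lines. YS line 1 had the highest value of the 9 lines for 32 of the 40 factors, against 27.3% of all tested genes. YS line 3 was highest for 4, BM line 3 for 3 and FL line 2 for 1 (Utp18), against 16.9%, 9.33% and 15.1% of all tested genes. FL line 2 had the lowest value for 13 and BM line 1 for 11, against 12.2% and 12.8% of all tested genes. Without YS line 1, 16 factors were higher and 2 lower in YS lines than in BM lines (22.7% and 15.4% of tested genes), with a median log2 difference of 0.33. In the same model 10 factors were higher and none lower in YS lines than in FL lines (4.68% and 6.49% of tested genes; none lower at an unadjusted p under 0.05 in limma), with a median of 0.21. The remaining YS lines were still above the FL and BM lines in the share of TPM taken by the 40 factors.

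Myc itself had 183, 95.9 and 51.8 TPM in YS lines 1 to 3, 82.4, 49.95 and 61.5 TPM in FL lines 1 to 3 and 57.5, 60.6 and 70.4 TPM in BM lines 1 to 3. YS lines 1 and 2 were above all other lines and YS line 3 was below all but FL line 2, and Myc was called in no comparison (limma adjusted p = 0.262 for YS against BM lines). Of 35 S phase genes, which rise when cells copy their DNA, 19 (54.3%, against 23.5% of all tested genes) were higher in YS lines than in BM lines. In that comparison 3 (8.57%, against 14.4%) were lower. Between YS and FL lines, 8 (22.9%, against 6.2%) were higher in YS lines and none lower, against 6.56% (1 lower at an unadjusted p under 0.05 in limma). Between FL and BM lines, 6 (17.1%, against 17%) were higher and 5 (14.3%, against 10.6%) lower in FL lines. The median level of the 35 S phase genes relative to each gene's mean was 0.33, 0.15 and 0.23 in YS lines 1 to 3, between -0.16 and 0.06 in FL lines and between -0.17 and -0.08 in BM lines, on the log2 scale. For the 40 factors this median was 0.65, 0.13 and 0.17 in YS lines, between -0.19 and 0.07 in FL lines and between -0.18 and -0.15 in BM lines. YS line 1 was highest in both, and all YS lines were above all others in both. The part of cell division in the levels of the 40 factors was not tested.

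**Figure D5:**
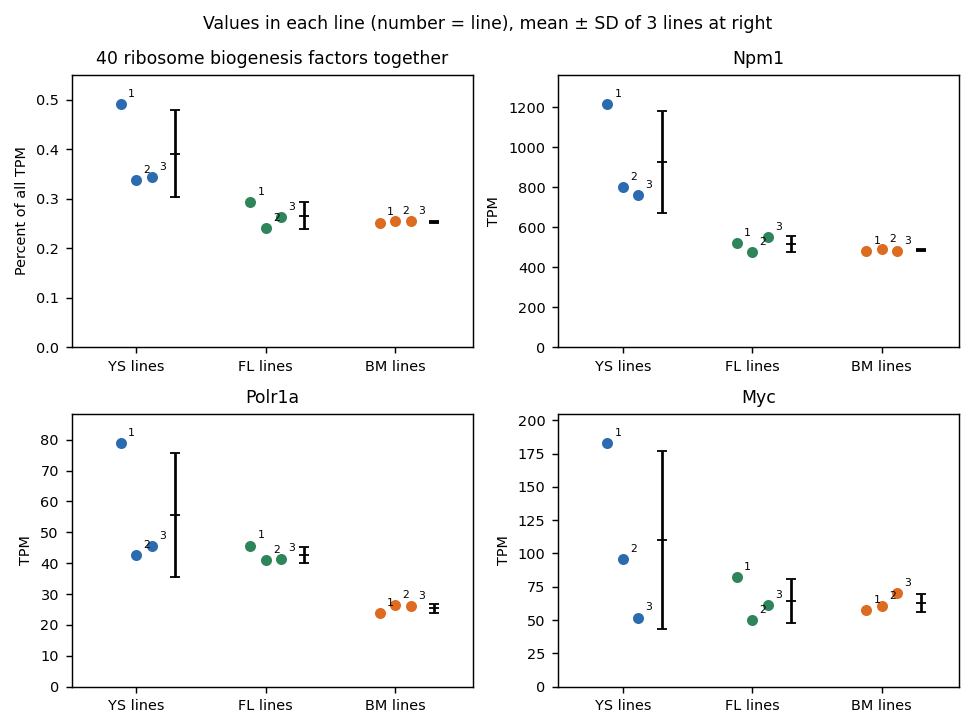
Values in each line (points, with the number of the line) and the mean ± SD of the 3 lines of each group (black), for the share of all TPM taken by the 40 factors (percent), and for Npm1, Polr1a and Myc (TPM). YS lines lie above all others for the 40 factors and for Npm1, YS and FL lines lie above BM lines for Polr1a, and the groups overlap for Myc.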

How the data were processed

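Total RNA was selected for poly(A), made into strand-specific libraries and sequenced as single reads by the authors, 1 library per line. The submitters' processing notes name Trim Galore 0.6.6, STAR 2.7.9a and RSEM 1.3.3; the build and annotation are not given in the sources used here. The authors deposited TPM, estimated read numbers divided by transcript length and scaled to an equal total in each library. The authors' own comparisons used raw counts, which were not analysed here. A sample's group and number came from the labels.

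From the TPM, log2(TPM + 1) was computed, and genes that reached 1 TPM in 3 or more of the 9 libraries were tested with limma 3.58.1 (R 4.3.3; intensity trend, all libraries in one model, Benjamini-Hochberg adjustment within a comparison). Members and lists were chosen with earlier results of these data known. Values by line are given for every factor called in a comparison, for a fixed set of core factors whatever their result, and for the extremes of level and spread. Other genes named are Myc and, from the list of other biogenesis genes, the called genes with the largest rise and fall in each comparison. Promoters came from RefSeq (GRCm38.p6), with no entry used for Npm1, Fbl, Bop1 and Rrp12. Chromosomes came from the same annotation, matched by symbol for 11160 of the 11753 tested genes. Alternative settings were a pseudocount of 0.1 or 4, no filter or one of 5 TPM, other scalings, no variance trend, and changes to the lines in the model, the replicate block and the threshold.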

Additional observations from a re-analysis of the deposited data

How the results depend on the processing

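No called factor changed sign in any of the 19 alternatives tried. The number called between YS and BM lines (21, with 37.9% of tested genes called) changed when a line was left out. It then ranged from 12 (without BM line 1, 22.4% of tested genes) to 28 (without YS line 3, 40.3%). In the other settings it ranged from 16 (at an adjusted p under 0.05, with the share of tested genes not counted) to 25 (with the replicate block, 37.2%). The number over 2-fold there (1) was 0 with a pseudocount of 4, with quantile normalization and with median-of-ratios scaling, and 0 (without YS line 1) to 4 (without YS line 3) when a line was left out. Between FL and BM lines, 11 of the 40 factors in place of 7 were called with only the 2 groups in the model, when the share of all tested genes called rose from 27.6% to 40.5%, and the number over 2-fold (1) was 0 with a pseudocount of 4. Between YS and FL lines, 0 factors in place of 15 were called with only the 2 groups in the model. The share of all tested genes called then fell from 12.8% to 0.834%. At an unadjusted p under 0.05 in limma, 17 factors were higher in that model, with no share of tested genes counted. At an adjusted p under 0.05 in the main model, 3 factors were called, again with no share counted. The number ranged from 0 (without FL line 3, 2.34% of tested genes) to 17 (without YS line 3, 15.3%) when a line was left out. The number over 2-fold (0) reached 1 without YS line 3 or without FL line 1. The median difference between YS and FL lines (0.44) ranged from 0.21 (without YS line 1) to 0.50. The cause of these changes was not tested.

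The labels number the lines 1 to 3 in each group but do not state that they are pairs. Deviations from the group means of same-numbered lines correlated between -0.12 and 0.09 over tested genes (9 pairs), against -0.14 to 0.12 for other pairs. No sign of pairing was thus seen. A weak pairing could be missed, because the deviations cancel within each group of 3 lines. With the number as a replicate block, 25, 8 and 16 factors were called (YS against BM, FL against BM, YS against FL), beside 37.2%, 26.01% and 10.5% of all tested genes, including 20 of the 21, 7 of the 7 and 14 of the 15.

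TPM holds no read numbers, so no counting error or detection limit is given. With 3 lines against 3, an exact permutation test of a single gene cannot go below p = 0.1. Starting cells, culture history and library preparation of a group cannot be told apart from its origin.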
